A study of Mus musculus with 15 samples.

Results

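The genes described here code for subunits of potassium, voltage-gated calcium, TRP and anoctamin channels, measured in 5 sorted populations of mesenchymal cells from mouse thymus and lymph node. Members were taken by symbol. They were all genes measured by a transcript cluster with exactly 1 symbol that named a Kcn potassium channel gene, a Cacn calcium channel gene, a Trpa, Trpc, Trpm or Trpv gene or an Ano gene, together with Abcc9. This gave 136 of the 18718 genes with a symbol of their own: 86 potassium channel genes counting Abcc9, 22 calcium channel genes, 20 TRP genes and 8 anoctamin genes. The symbol rule used no measured value, but it was set with earlier results of these data known. Where a gene had several transcript clusters, as 6 members did, the one with the highest mean was kept.

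All mice were C57BL/6 and 2 weeks old, and no treatment or genetic change is given in the labels. Cells were released with liberase and DNase I and sorted as positive for PDGFRβ, a receptor carried by pericytes and fibroblasts. Thymus gave a PDPN-Ly51+ and a PDPN+BP3- population. Inguinal, brachial and axillary nodes, pooled as 1 lymph node (LN) sample, gave PDPN-Ly51+, PDPN+BP3- and PDPN+BP3+ populations. Podoplanin (PDPN) is a surface glycoprotein of fibroblastic cells, BP3 is encoded by Bst1 and Ly51 by Enpep, and the Ly51+ populations are called PDPN- here. Each population was measured on 3 arrays from 3 individual experiments with separate pools of mice (n = 3). Thymus pools held 3 mice and LN pools 10 to 11, so that pool size and tissue cannot be told apart. In such bulk samples, fewer cells of a type and less RNA per cell cannot be told apart either.

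Potassium channels let potassium leave the cell and so hold the membrane negative, whereas voltage-gated calcium channels open on depolarisation and admit the calcium that drives contraction and calcium-dependent transcription. TRP channels are cation channels opened by lipids, calcium, stretch or temperature, and anoctamins include calcium-activated chloride channels and lipid scramblases. In mural cells of blood vessels, that is pericytes and smooth muscle cells, the balance of these currents sets vessel tone, and the ATP-sensitive potassium channel genes Kcnj8 and Abcc9 are among the commonly used pericyte markers.

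Values are RMA signals on a log2 scale, and each probe set has its own response, so levels were compared between populations within a gene. Setting genes against a common cut, such as the median of all deposited values, is the exception. It sorts genes by signal and not by RNA amount. The number of arrays limits the precision. Differences are given as log2 differences ± SE from a limma fit across all 18718 genes, with p-values adjusted by Benjamini-Hochberg over those genes and called at an adjusted p of at most 0.05. The transcripts of the sort antigens followed the sort: Pdpn averaged 8.16 to 9.11 in the PDPN+ populations against 3.01 and 3.41 in the PDPN- populations, and Bst1 8.74 in LN PDPN+BP3+ cells against 2.18 to 3.30 elsewhere. The median signal of an array was 3.58 on replicate 1 of thymus PDPN+BP3- and 3.77 to 3.885 on the other arrays. Of marker lists for other cells, the T lineage list averaged 3.11 to 4.91 on the thymus arrays and 2.45 to 2.60 on the LN arrays, and the epithelial list 3.61 to 4.78 against 2.74 to 2.97. The endothelial list averaged 4.13 to 4.50 on LN PDPN+BP3- arrays and 3.29 to 3.84 on the others.

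Most channel genes gave low signals. Only 40 of 136 members (29.4%) had a mean above the median of all deposited values, 3.80, in at least 1 population, compared with 57.0% of all genes, and 15 (11.0%, against 45.4%) lay above it in all 5. The table has no measure of background, so a signal below the median is called low and not absent, and a difference between low signals is no ratio of RNA amounts. The 15 were the potassium channel genes Abcc9, Kcne4, Kcnip3, Kcnj8 and Kcnk6, the calcium channel genes Cacna1c, Cacna2d1, Cacnb1 and Cacng7, the TRP genes Trpc1, Trpm4 and Trpm7, and the anoctamins Ano1, Ano6 and Ano10. Kcnd1, Kcnj13 and Kcns3 were above it in 4 populations, and Kcnk3, Kcnmb1, Kcnt2, Cacna1a, Cacna1g, Cacna1h and Trpv2 in 3. Kcna3, Kcna5, Kcna6, Kcnab1, Kcnd2, Kcnma1, Kcnn3, Kcnt1 and Trpc6 were above it in 2, and Kcnb2, Kcng4, Kcnh1, Kcnip4, Kcnq5 and Cacng4 in 1.

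By family, 24 of 86 potassium, 8 of 22 calcium, 5 of 20 TRP and 3 of 8 anoctamin genes were above the median somewhere. Thymus PDPN- cells had 32 such members, LN PDPN+BP3- cells 30, LN PDPN- cells 27, thymus PDPN+BP3- cells 22 and LN PDPN+BP3+ cells 21. The share of all genes above the median was not counted for each population, so this order shows nothing particular to channel genes. The members nearest to the median had highest means of 3.85 (Kcnh1), 3.93 (Kcnb2), 3.98 (Kcna3) and 4.11 (Cacng4) above it and 3.70 (Cacng2), 3.63 (Kcnh3), 3.62 (Cacnb4) and 3.54 (Kcnq1) below it. The 40 differed widely among populations: the span from the lowest to the highest population mean was 0.26 to 5.72, with a median of 2.16. For the other 96 the highest mean was 1.95 to 3.70, and the median span was 0.24. The split was made on the highest mean, so a wider span among the 40 is partly built in. Spans were not computed over all genes. The SD within a population had a median of 0.13 and reached 0.73. Of the 40, the highest mean was in thymus PDPN- cells for 20, in LN PDPN+BP3- cells for 9, in LN PDPN+BP3+ cells for 7, in thymus PDPN+BP3- cells for 3 and in LN PDPN- cells for 1, Trpm7. The population with the highest mean was not counted over all genes.

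**Figure D1:**
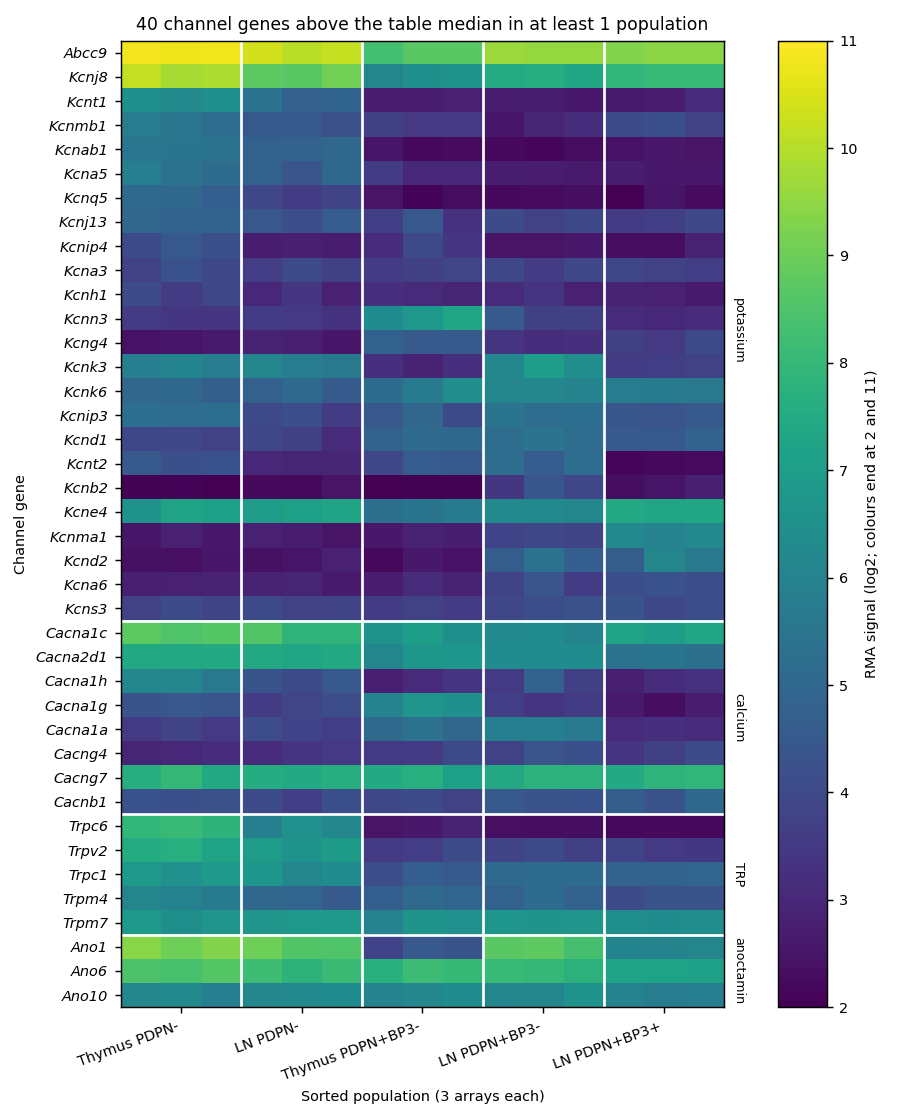
Heat map of the RMA signal (log2, colour) of the 40 channel genes whose mean exceeded the table median of 3.80 in at least 1 population, with 1 column per array, 3 arrays per population, and genes grouped by family. Abcc9 and Kcnj8 were bright on all 15 arrays and Trpc6 on the arrays of both PDPN- populations. Kcnma1 was brightest on those of LN PDPN+BP3+ cells, and Kcnd2 on those of both LN PDPN+ populations.

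Kcnj8 and Abcc9 code for the pore and the sulfonylurea receptor subunit of the vascular ATP-sensitive potassium channel, which opens when ATP falls, and the genes neighbour each other on chromosome 6. Trpc6 codes for a cation channel opened by diacylglycerol downstream of receptors that couple to phospholipase C. All of them were highest in thymus PDPN- cells, next in LN PDPN- cells and lower in every PDPN+ population. Other members, among them Kcnt1, Kcnab1 and Trpv2, had this order too, and within the PDPN+ populations Kcnj8, Abcc9 and Trpc6 differed in order. Sequences around the start sites are shown for Kcnj8, Abcc9 and Trpc6, the markers whose PDPN- arrays all lay above their PDPN+ arrays. The marker Ano1 also had its highest means in PDPN- cells, but its LN PDPN- and PDPN+BP3- arrays overlapped, and its sequence is not shown. The sequences are from RefSeq on GRCm38.p6, with 250 bases before and 50 after the start. Capitals mark matches on either strand to the CArG box, the motif of serum response factor in smooth muscle genes, or to TGGGAA, the core letters bound by RBPJ, the DNA-binding protein of Notch signalling. The Abcc9 window is chr6:142702225-142702524 on the minus strand, the Kcnj8 window chr6:142571565-142571864 on the minus strand and the Trpc6 window chr9:8543892-8544191 on the plus strand.
Abcc9: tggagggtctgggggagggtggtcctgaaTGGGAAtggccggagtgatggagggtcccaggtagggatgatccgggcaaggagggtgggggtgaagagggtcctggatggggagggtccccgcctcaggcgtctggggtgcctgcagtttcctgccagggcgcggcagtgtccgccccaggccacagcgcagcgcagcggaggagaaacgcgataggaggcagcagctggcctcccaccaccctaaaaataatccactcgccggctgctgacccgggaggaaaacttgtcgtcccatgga
Kcnj8: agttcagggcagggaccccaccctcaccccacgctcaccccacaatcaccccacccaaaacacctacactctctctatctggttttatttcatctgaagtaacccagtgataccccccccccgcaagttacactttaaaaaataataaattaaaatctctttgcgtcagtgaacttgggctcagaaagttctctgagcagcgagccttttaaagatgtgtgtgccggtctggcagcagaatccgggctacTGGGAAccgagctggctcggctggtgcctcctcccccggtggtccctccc
Trpc6: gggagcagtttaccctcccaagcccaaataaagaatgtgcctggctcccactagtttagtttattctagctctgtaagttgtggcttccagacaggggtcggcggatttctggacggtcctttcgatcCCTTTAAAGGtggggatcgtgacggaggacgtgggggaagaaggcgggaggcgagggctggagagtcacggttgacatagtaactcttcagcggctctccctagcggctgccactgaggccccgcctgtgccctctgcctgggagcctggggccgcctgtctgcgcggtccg
Counted from the start site at 0, with negative positions upstream, the Abcc9 window held 1 TGGGAA match beginning at -221 and the Kcnj8 window 1 beginning at 0. The Trpc6 window held 1 CArG box beginning at -122. TGGGAA was found in 25.6% of all 32851 windows of this length and in 26.2% of the 145 windows of members, which belong to 107 genes. The CArG box was in 1.63% of all windows and in 1.38% of the members' windows, which are those of Trpc6 and Trpv1. No match overlapped another in the 3 windows shown. A match is a match of letters and says nothing about binding, and a window without one says only that these letters are not in it.

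Kcnj8 measured 10.16, 9.83 and 9.88 on the thymus PDPN- arrays and 8.75, 8.70 and 9.10 on the LN PDPN- arrays. In the PDPN+ populations it measured 6.12, 6.52 and 6.61 in thymus PDPN+BP3- cells, 7.52, 7.61 and 7.39 in LN PDPN+BP3- cells and 7.92, 8.10 and 8.10 in LN PDPN+BP3+ cells. No arrays overlapped between any pair of populations. Thymus PDPN+BP3- cells were lower than thymus PDPN- cells by -3.54 ± 0.15 (adjusted p = 1.43e-11). In LN the PDPN+BP3- cells were lower than the PDPN- cells by -1.34 ± 0.15 (adjusted p = 2.67e-06), and the PDPN+BP3+ cells by -0.81 ± 0.15 (adjusted p = 0.000454). The tissues differed in opposite directions, with LN lower than thymus in PDPN- cells (-1.11 ± 0.15, adjusted p = 7.91e-05) and higher in PDPN+BP3- cells (1.09 ± 0.15, adjusted p = 5.2e-05).

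Abcc9 measured 10.85, 10.76 and 10.79 in thymus PDPN- cells and 10.40, 10.07 and 10.20 in LN PDPN- cells. The PDPN+ populations measured 8.32, 8.68 and 8.68 in thymus, 9.64, 9.57 and 9.56 in LN PDPN+BP3- cells and 9.28, 9.43 and 9.43 in LN PDPN+BP3+ cells. Again no arrays of any pair of populations overlapped. Thymus PDPN+BP3- cells were lower than thymus PDPN- cells by -2.24 ± 0.12 (adjusted p = 2.49e-10), and the LN PDPN+BP3- and PDPN+BP3+ cells were lower than LN PDPN- cells by -0.63 ± 0.12 (adjusted p = 0.000648) and -0.84 ± 0.12 (adjusted p = 3.64e-05). As for Kcnj8, LN was lower than thymus in PDPN- cells (-0.58 ± 0.12, adjusted p = 0.0039) and higher in PDPN+BP3- cells (1.03 ± 0.12, adjusted p = 9.59e-06). Between the LN PDPN+ populations Abcc9 did not pass the threshold (-0.21 ± 0.12, adjusted p = 0.303), while Kcnj8 was higher with BP3 (0.53 ± 0.15, adjusted p = 0.0177). That Kcnj8 call was lost without replicate 2 or 3 of LN PDPN+BP3+ (0.50 in each case, adjusted p = 0.0708 and 0.0623) and without replicate 3 of LN PDPN+BP3- (0.48, adjusted p = 0.0784).

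Trpc6 measured 7.95, 8.05 and 7.83 in thymus PDPN- cells and 5.89, 6.56 and 6.15 in LN PDPN- cells. All PDPN+ arrays were low, at 2.47, 2.62 and 2.85 in thymus, 2.36, 2.34 and 2.33 in LN PDPN+BP3- cells and 2.24, 2.24 and 2.18 in LN PDPN+BP3+ cells. It was therefore bright in the PDPN- populations alone, and it showed the widest span of the 40 genes above the median. The difference was -5.30 ± 0.14 in thymus (adjusted p = 1.69e-13), and in LN -3.86 ± 0.14 for PDPN+BP3- (adjusted p = 6.91e-12) and -3.98 ± 0.14 for PDPN+BP3+ (adjusted p = 3.77e-12). Within the PDPN- cells LN was lower than thymus by -1.74 ± 0.14 (adjusted p = 5.62e-07). The PDPN+BP3- cells of the tissues did not pass the threshold as deposited (-0.30 ± 0.14, adjusted p = 0.178) but did after cyclic loess (-0.48, adjusted p = 0.0199), both signals being low.

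Trpv2, Trpc1 and Trpm4 were the other TRP genes above the median that differed. Trpv2, a calcium-permeable channel, measured 7.53, 7.67 and 7.27 in thymus PDPN- cells and 6.99, 6.61 and 6.91 in LN PDPN- cells, against 3.47 to 4.07 on the 9 PDPN+ arrays. Its difference was -3.74 ± 0.16 in thymus (adjusted p = 2.49e-11), -2.98 ± 0.16 for LN PDPN+BP3- (adjusted p = 5.75e-10) and -3.22 ± 0.16 for LN PDPN+BP3+ (adjusted p = 1.78e-10). Trpc1, which codes for a subunit that joins other TRPC proteins, measured 6.84, 6.54 and 6.88 in thymus PDPN- cells and 6.72, 6.12 and 6.37 in LN PDPN- cells. Its PDPN+ arrays lay between 4.16 and 5.18. The differences were -2.30 ± 0.16 in thymus (adjusted p = 5.98e-09) and -1.27 ± 0.16 and -1.53 ± 0.16 in LN without and with BP3 (adjusted p = 9.93e-06 and 1.13e-06). Trpm4, a calcium-activated channel for monovalent cations, measured 6.11, 5.96 and 5.66 in thymus PDPN- cells and 4.04 to 5.14 on all other arrays. It was thus highest in thymus PDPN- cells, and the LN PDPN- cells differed from them by -1.09 ± 0.16 (adjusted p = 0.000189). Trpm7, a channel joined to a kinase that carries magnesium and zinc, measured 5.99 to 6.87 on the 15 arrays and passed no test among populations.

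Ano1 codes for the calcium-activated chloride channel of smooth muscle and pacemaker cells. It measured 9.41, 9.03 and 9.28 in thymus PDPN- cells and 9.03, 8.56 and 8.52 in LN PDPN- cells. The PDPN+ populations differed widely, with 3.81, 4.50 and 4.34 in thymus, 8.71, 8.76 and 8.35 in LN PDPN+BP3- cells and 6.06, 6.02 and 6.11 in LN PDPN+BP3+ cells. In LN, the PDPN+BP3- and PDPN- arrays overlapped, and the PDPN+BP3+ arrays lay well below both. In thymus the PDPN+BP3- cells were lower than the PDPN- cells by -5.02 ± 0.18 (adjusted p = 2.85e-12), while in LN the same comparison gave -0.10 ± 0.18 (adjusted p = 0.79). LN PDPN+BP3+ cells were lower than LN PDPN- cells by -2.64 ± 0.18 (adjusted p = 8.44e-09) and lower than LN PDPN+BP3- cells by -2.54 ± 0.18 (adjusted p = 2.56e-08). Between tissues the PDPN+BP3- cells differed by 4.39 ± 0.18, higher in LN (adjusted p = 9.86e-11). The PDPN- cells differed by -0.54 ± 0.18, which missed the threshold (adjusted p = 0.0784) but passed it with all arrays shifted to 1 median (-0.54, adjusted p = 0.0343) and without replicate 1 of LN PDPN- (-0.70, adjusted p = 0.0222). Ano6, a calcium-activated lipid scramblase, measured 7.72 to 8.62 in thymus and in LN PDPN- and PDPN+BP3- cells and 7.20, 7.22 and 7.16 in LN PDPN+BP3+ cells. It was lowest in the last of these, by -0.86 ± 0.14 against LN PDPN- cells (adjusted p = 0.000129) and by -0.77 ± 0.14 against PDPN+BP3- cells (adjusted p = 0.000595). Ano10 measured 5.81 to 6.63 and passed no test.

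**Figure D2:**
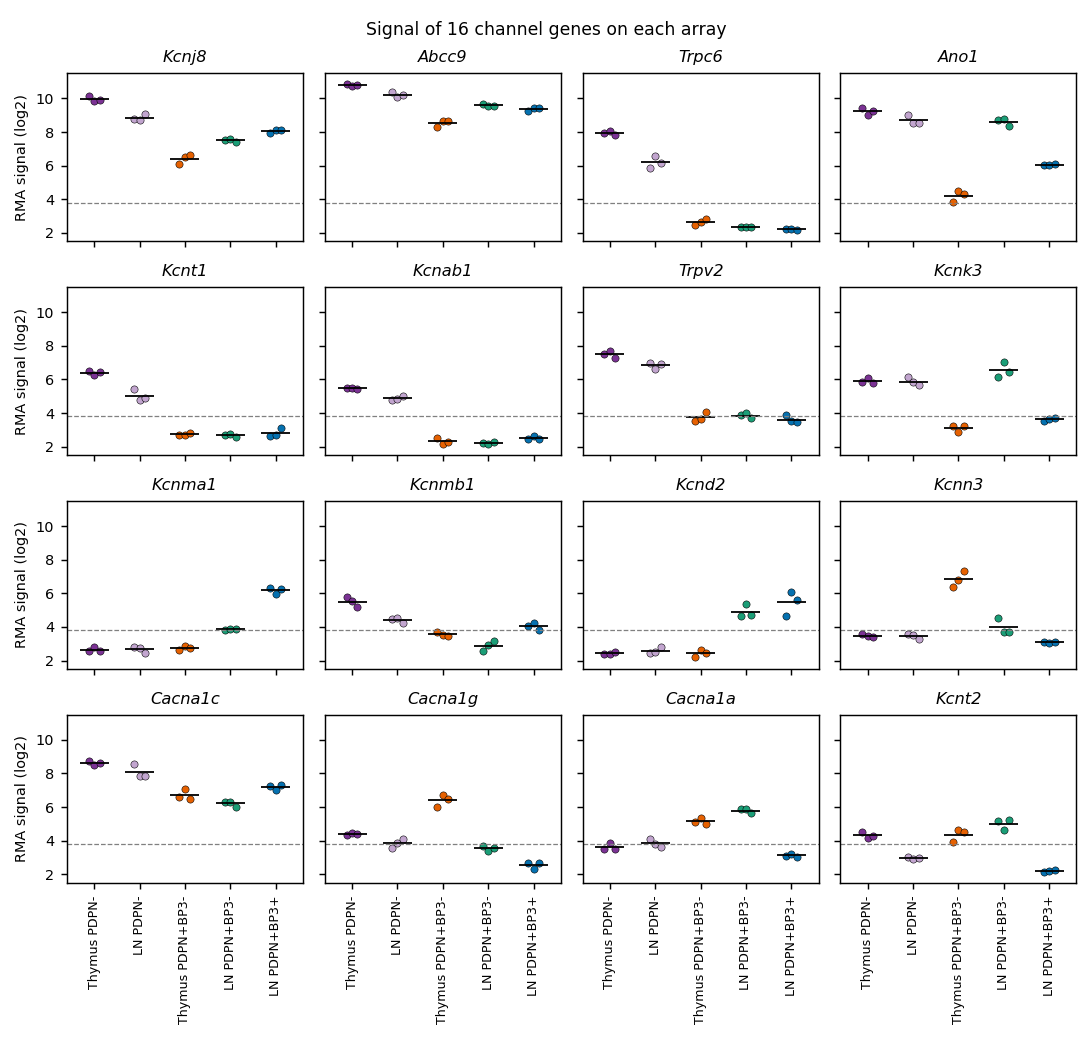
RMA signal (log2) of 16 channel genes on each array; points are arrays, horizontal bars are the means of 3 arrays of a population, and the dashed line is the table median of 3.80. Trpc6, Trpv2, Kcnt1 and Kcnab1 were high in both PDPN- populations, Kcnn3 and Cacna1g were highest in thymus PDPN+BP3- cells, and Kcnma1 was highest in LN PDPN+BP3+ cells.

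Among the other potassium channel genes, a first group was highest in the PDPN- cells of both tissues. Kcnt1, which codes for a sodium-activated potassium channel, measured 6.51, 6.25 and 6.47 in thymus PDPN- cells, 5.43, 4.76 and 4.90 in LN PDPN- cells and 2.60 to 3.12 on the PDPN+ arrays. Kcnab1, an auxiliary β subunit of voltage-gated channels, measured 5.52, 5.51 and 5.43, then 4.80, 4.83 and 4.99, then 2.16 to 2.62 in the same order. Kcna5, a voltage-gated channel of vascular and cardiac muscle, measured 5.85, 5.34 and 5.18, then 4.78, 4.39 and 5.01, then 2.60 to 3.59. For each of these, every PDPN- array lay above every PDPN+ array, and LN PDPN- cells were lower than thymus PDPN- cells. The thymus differences were -3.66 ± 0.16 for Kcnt1, -3.17 ± 0.11 for Kcnab1 and -2.25 ± 0.19 for Kcna5 (adjusted p = 3.23e-11, 1.42e-12 and 9.32e-08). For LN PDPN+BP3- cells the differences were -2.34 ± 0.16, -2.65 ± 0.11 and -2.01 ± 0.19 (adjusted p = 1.1e-08, 1.5e-11 and 4.97e-07). Between the PDPN- populations the differences were -1.38 ± 0.16, -0.61 ± 0.11 and -0.73 ± 0.19 (adjusted p = 2.46e-05, 0.0011 and 0.021). Kcnq5, a channel of the M-current family, had the same order, with 5.06, 5.05 and 4.68 in thymus PDPN- cells, 3.92, 3.61 and 3.85 in LN PDPN- cells and 1.95 to 2.52 elsewhere.

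The large-conductance calcium-activated potassium channel has a pore subunit, Kcnma1, and in smooth muscle a β subunit, Kcnmb1, that raises its calcium sensitivity. Their signals were highest in different populations. Kcnma1 measured 6.29, 5.98 and 6.24 in LN PDPN+BP3+ cells, 3.80, 3.90 and 3.85 in LN PDPN+BP3- cells and 2.47 to 2.87 on the 9 other arrays. Kcnmb1 measured 5.77, 5.53 and 5.21 in thymus PDPN- cells, 4.48, 4.55 and 4.23 in LN PDPN- cells, 4.08, 4.21 and 3.79 in LN PDPN+BP3+ cells, 3.71, 3.49 and 3.48 in thymus PDPN+BP3- cells and 2.56, 2.94 and 3.17 in LN PDPN+BP3- cells. The pore gene was therefore low in the PDPN- cells where the β subunit gene was highest, and both were higher in LN PDPN+BP3+ than in LN PDPN+BP3- cells. Kcnma1 differed there by 2.32 ± 0.13 (adjusted p = 1.09e-09) and Kcnmb1 by 1.14 ± 0.17 (adjusted p = 0.000131). Against LN PDPN- cells, Kcnma1 was higher by 3.49 ± 0.13 with BP3 (adjusted p = 3.7e-12) and by 1.17 ± 0.13 without BP3 (adjusted p = 2.33e-06). Kcne4, an auxiliary subunit that inhibits several voltage-gated channels, measured 7.50, 7.31 and 7.40 in LN PDPN+BP3+ cells, 6.24, 6.32 and 6.14 in LN PDPN+BP3- cells and 5.31, 5.50 and 5.74 in thymus PDPN+BP3- cells. The 6 PDPN- arrays of Kcne4 lay between 6.60 and 7.24, and the difference with BP3 in LN was 1.17 ± 0.15 (adjusted p = 2.17e-05).

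Kcnk3 codes for a channel of the tandem-pore-domain family that carries an acid-sensitive leak current. It measured 5.86, 6.07 and 5.79 in thymus PDPN- cells, 6.14, 5.83 and 5.65 in LN PDPN- cells and 6.16, 7.03 and 6.42 in LN PDPN+BP3- cells. It was low in thymus PDPN+BP3- cells (3.24, 2.90 and 3.22) and in LN PDPN+BP3+ cells (3.55, 3.67 and 3.73). The 9 arrays of the bright populations all lay above the 6 of the low ones. Thymus PDPN+BP3- cells were lower than thymus PDPN- cells by -2.79 ± 0.19 (adjusted p = 5.15e-09), whereas LN PDPN+BP3- cells were higher than LN PDPN- cells by 0.66 ± 0.19 (adjusted p = 0.0155). LN PDPN+BP3+ cells were lower than PDPN+BP3- cells by -2.89 ± 0.19 (adjusted p = 8.44e-09). Kcnk6, another tandem-pore-domain gene, measured 4.55 to 5.06 on the PDPN- arrays and 5.18 to 6.40 on the PDPN+ arrays, so that these did not overlap. Its differences were 0.84 ± 0.22 in thymus (adjusted p = 0.00788, or 0.0503 when only the thymus arrays were fitted), 1.31 ± 0.22 for LN PDPN+BP3- (adjusted p = 0.000247) and 0.91 ± 0.22 for LN PDPN+BP3+ (adjusted p = 0.00462).

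A further group had its highest mean in 1 of the LN PDPN+ populations. Kcnd2 and Kcnd1 code for channels of the transient A-type current. Kcnd2 measured 4.64, 5.38 and 4.69 in LN PDPN+BP3- cells and 4.66, 6.08 and 5.63 in LN PDPN+BP3+ cells, against 2.21 to 2.82 on the 9 other arrays. Its difference from LN PDPN- cells was 2.32 ± 0.27 without BP3 (adjusted p = 6.67e-06) and 2.87 ± 0.27 with BP3 (adjusted p = 4.95e-07), and the populations with and without BP3 overlapped. Kcnd1 measured 3.10 to 3.93 on the PDPN- arrays and was higher in every PDPN+ population, with 4.78, 5.11 and 5.02 in thymus, 5.23, 5.44 and 5.21 in LN PDPN+BP3- cells and 4.51, 4.47 and 4.84 in LN PDPN+BP3+ cells. The Kcnd1 differences were 1.10 ± 0.17, 1.72 ± 0.17 and 1.04 ± 0.17 (adjusted p = 0.000124, 1.12e-06 and 0.000234). Kcna6, a delayed-rectifier gene, measured 3.55 to 4.38 on the LN PDPN+ arrays and 2.64 to 3.16 on the others. Kcnb2, of another delayed-rectifier family, measured 3.47, 4.41 and 3.91 in LN PDPN+BP3- cells and 1.84 to 2.79 elsewhere.

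Kcnt2, the sodium-activated channel gene related to Kcnt1, had an order of its own. It measured 5.20, 4.63 and 5.23 in LN PDPN+BP3- cells, 3.93, 4.63 and 4.50 in thymus PDPN+BP3- cells and 4.53, 4.18 and 4.28 in thymus PDPN- cells. It was low in LN PDPN- cells (3.02, 2.93 and 2.95) and lowest in LN PDPN+BP3+ cells (2.15, 2.20 and 2.25). The thymus populations overlapped (0.02 ± 0.18, adjusted p = 0.944). LN PDPN+BP3- cells were higher than LN PDPN- cells by 2.05 ± 0.18 (adjusted p = 1.79e-07), and LN PDPN+BP3+ cells were lower than PDPN+BP3- cells by -2.82 ± 0.18 (adjusted p = 6.37e-09).

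Among the 40 members above the table median, thymus PDPN+BP3- cells were highest for 3. Kcnn3, a small-conductance calcium-activated potassium channel, measured 6.39, 6.81 and 7.32 there, 4.53, 3.72 and 3.71 in LN PDPN+BP3- cells and 3.02 to 3.58 on the other 9 arrays. Kcng4, a modifier subunit that is silent on its own, measured 4.79, 4.52 and 4.50 there, 3.50 to 3.97 in LN PDPN+BP3+ cells, 3.18 to 3.37 in LN PDPN+BP3- cells and 2.43 to 2.85 on the PDPN- arrays. Cacna1g, the pore of a T-type calcium channel that opens at low voltage, measured 6.02, 6.71 and 6.50 there, 4.32, 4.44 and 4.39 in thymus PDPN- cells, 3.39 to 4.11 in LN PDPN- and PDPN+BP3- cells and 2.32 to 2.67 in LN PDPN+BP3+ cells. In each of these genes the thymus PDPN+BP3- arrays lay above all 12 others. Against thymus PDPN- cells the differences were 3.37 ± 0.22 for Kcnn3 (adjusted p = 3.17e-09), 2.07 ± 0.13 for Kcng4 (adjusted p = 3.51e-09) and 2.03 ± 0.17 for Cacna1g (adjusted p = 9.25e-08). LN PDPN+BP3- cells were lower than their thymus counterpart by -2.85 ± 0.22, -1.33 ± 0.13 and -2.86 ± 0.17 (adjusted p = 1.1e-07, 2.48e-06 and 6.92e-09).

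Kcnip3 and Kcnip4 code for calcium-binding proteins that join A-type channels. Kcnip3 measured 5.29, 5.23 and 5.25 in thymus PDPN- cells, 5.45, 5.20 and 5.27 in LN PDPN+BP3- cells and 3.55 to 4.96 on the 9 other arrays. Its sign differed between tissues, with thymus PDPN+BP3- cells lower than PDPN- cells (-0.79 ± 0.19, adjusted p = 0.00547) and LN PDPN+BP3- cells higher than PDPN- cells (1.41 ± 0.19, adjusted p = 3.54e-05). Kcnip4 measured 4.03, 4.48 and 4.18 in thymus PDPN- cells, 3.13, 3.99 and 3.44 in thymus PDPN+BP3- cells and 2.30 to 2.89 on the 9 LN arrays. Every thymus array of Kcnip4 thus lay above every LN array, and LN was lower by -1.49 ± 0.19 in PDPN- cells (adjusted p = 7.08e-05) and by -1.003 ± 0.19 in PDPN+BP3- cells (adjusted p = 0.00161). The T lineage and epithelial marker lists were higher in the same thymus arrays, and their part in this difference was not tested.

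Of the voltage-gated calcium channel genes, Cacna1c and Cacna2d1 were highest in PDPN- cells. Cacna1c codes for the pore of the L-type channel through which smooth muscle takes up calcium, and Cacna2d1 for an α2δ subunit that carries channels to the membrane. Cacna1c measured 8.74, 8.53 and 8.64 in thymus PDPN- cells and 8.56, 7.87 and 7.86 in LN PDPN- cells. In the PDPN+ populations it measured 6.60, 7.06 and 6.47 in thymus, 6.31, 6.33 and 6.01 in LN PDPN+BP3- cells and 7.24, 7.01 and 7.34 in LN PDPN+BP3+ cells. The PDPN+ arrays were all below the PDPN- arrays, with differences of -1.93 ± 0.19 in thymus (adjusted p = 5.42e-07), -1.88 ± 0.19 for LN PDPN+BP3- (adjusted p = 9.45e-07) and -0.90 ± 0.19 for LN PDPN+BP3+ (adjusted p = 0.00152). Cacna2d1 measured 7.29 to 7.50 on the 6 PDPN- arrays, 6.13 to 6.75 in the PDPN+BP3- cells of both tissues and 5.38, 5.51 and 5.31 in LN PDPN+BP3+ cells. Its differences were -0.94 ± 0.14, -1.02 ± 0.14 and -1.99 ± 0.14 (adjusted p = 6.01e-05, 2.98e-05 and 9.59e-09).

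Cacna1a and Cacna1h had other orders. Cacna1a, the pore of the P/Q-type channel known from nerve terminals, measured 5.87, 5.89 and 5.63 in LN PDPN+BP3- cells, 5.12, 5.36 and 4.98 in thymus PDPN+BP3- cells, 3.49 to 4.11 on the PDPN- arrays and 3.11, 3.22 and 3.06 in LN PDPN+BP3+ cells. It was higher in the PDPN+BP3- than in the PDPN- cells of thymus (1.53 ± 0.14, adjusted p = 3.35e-07) and of LN (1.94 ± 0.14, adjusted p = 2.53e-08), and lower with BP3 (-2.67 ± 0.14, adjusted p = 9.4e-10). Cacna1h, a T-type pore, measured 6.15, 6.14 and 5.59 in thymus PDPN- cells, 4.35, 3.97 and 4.49 in LN PDPN- cells, 3.54, 4.78 and 3.72 in LN PDPN+BP3- cells and 2.79 to 3.36 on the other 6 arrays. Thymus PDPN- cells were above all others, with thymus PDPN+BP3- cells lower by -2.89 ± 0.27 (adjusted p = 3.42e-07) and LN PDPN- cells by -1.69 ± 0.27 (adjusted p = 0.000492). Cacng7, of a family that attends glutamate receptors and calcium channels, measured 7.11 to 7.98 and passed no test.

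Some of the 96 low members also differed. Kcnq1, of the slow delayed-rectifier current, measured 3.60, 3.52 and 3.51 in thymus PDPN- cells, 3.03, 3.42 and 3.08 in LN PDPN- cells and 2.03 to 2.50 on the PDPN+ arrays. These did not overlap, and the differences were -1.27 ± 0.13 in thymus (adjusted p = 7.74e-07), -0.95 ± 0.13 for LN PDPN+BP3- (adjusted p = 2.64e-05) and -0.86 ± 0.13 for LN PDPN+BP3+ (adjusted p = 6.33e-05). Trpv4, a channel opened by swelling and warmth, measured 2.17 to 2.65 on the PDPN- arrays and 2.66 to 3.38 on the PDPN+ arrays. It was higher in the PDPN+BP3- cells of thymus (0.82 ± 0.17, adjusted p = 0.00123) and of LN (0.61 ± 0.17, adjusted p = 0.0119). Both genes were picked from the low members after their values were seen. In no pairwise comparison were 81 of the 136 members called (59.6%, against 51.2% of all genes).

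Over all 136 members, the moderated F test across the 5 populations called 54 (39.7%, where 45.3% of all genes were called). These were 36 of the 40 members above the median and 18 of the 96 low ones. The 4 above the median that it did not call were Ano10, Cacng7, Kcna3 and Trpm7. Here and in the comparisons below, calls over all genes were not split by the table median. Such splits therefore show nothing particular to channel genes.

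In thymus, PDPN+BP3- cells had lower signals than PDPN- cells for Trpc6, Ano1, Trpv2, Kcnt1, Kcnj8 and Kcnab1, and higher signals for Kcnn3, Kcng4, Cacna1g, Cacna1a and Kcnd1. Of the 136 members 39 were called (28.7%), where 28.5% of all genes were called. The 39 comprised 13 higher (all genes 10.3%) and 26 lower (all genes 18.2%). Of the 39, 28 were above the table median in 1 of these populations, 6 of them higher and 22 lower. By family, 22 of 86 potassium (6 higher, 16 lower), 7 of 22 calcium (4 higher, 3 lower), 8 of 20 TRP (3 higher, 5 lower) and 2 of 8 anoctamin genes (both lower) were called. The median difference was 0.00 over the members and -0.05 over all genes. The share called was close to that of all genes, so the count shows nothing particular to channel genes. Beside this, all 14 pericyte and smooth muscle markers, a list that holds Kcnj8, Abcc9, Trpc6 and Ano1 themselves, were lower and all 7 measured fibroblast markers were higher. T lineage markers were lower in 4 of 10 (median -0.70) and epithelial markers in 3 of 7 (median -0.44), none of either being higher. The part of these lists in the channel differences was not tested.

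Genes of the calcium stores, which release and refill the calcium that these channels act with, were counted for the same cells. Of 25 measured, 1 was higher and 11 lower in thymus PDPN+BP3- than in PDPN- cells, where 10.3% of all genes were higher and 18.2% lower. The median difference was -0.25, against -0.05 over all genes. Casq2, which binds calcium in the store, was lower by -5.60 ± 0.17 (adjusted p = 3.77e-13), Jph2, which ties the store to the plasma membrane, by -3.94 ± 0.20 (adjusted p = 2.07e-10), and Pln, the regulator of the store's calcium pump, by -2.84 ± 0.22 (adjusted p = 3.64e-08). In LN PDPN+BP3- against PDPN- cells, 1 was higher and 9 lower (all genes 13.4% and 9.79%), with a median of -0.19 against -0.01 over all genes. Here Casq2 was at -4.29 ± 0.17 (adjusted p = 1.02e-11), Ryr2, a release channel of the store, at -2.73 ± 0.13 (adjusted p = 1.43e-10) and Jph2 at -2.62 ± 0.20 (adjusted p = 4.76e-08). For LN PDPN+BP3+ against the same PDPN- arrays, 2 were higher and 12 lower (all genes 16.1% and 11.2%), with a median of -0.45 against 0.00 over all genes. Between the PDPN- populations Casq2 was lower in LN (-1.59 ± 0.17, adjusted p = 8.63e-06) and Ryr2 higher (2.20 ± 0.13, adjusted p = 1.44e-08).

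In LN, PDPN+BP3- cells had lower signals than PDPN- cells for Trpc6, Trpv2, Kcnab1, Kcnt1, Kcna5, Cacna1c, Kcnmb1 and Kcnj8, and higher signals for Kcnd2, Kcnt2, Cacna1a, Kcnd1, Kcnb2, Kcnip3, Kcnk6 and Kcnma1. Of the members 30 were called (22.1%, all genes 23.1%), 14 higher (all genes 13.4%) and 16 lower (all genes 9.79%). Of these, 23 were above the table median in 1 of the populations, 11 higher and 12 lower. No anoctamin was called. The median difference was -0.05 over the members and -0.01 over all genes. The share of members called was again near that of all genes. Beside this, 12 of 14 pericyte and smooth muscle markers were lower (median -2.49), the 4 channel genes again among the 14. Higher were all 7 fibroblast markers (median 3.41), 4 of 5 lymphoid stroma markers and 7 of 12 endothelial markers. Their part in the channel differences was not tested.

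LN PDPN+BP3+ cells were compared with the same PDPN- arrays, so these comparisons share arrays. Signals were lower for Trpc6, Trpv2, Ano1, Kcnab1, Kcnk3, Kcnt1, Kcna5 and Cacna2d1 and higher for Kcnma1, Kcnd2, Kcna6, Kcnd1, Kcnk6 and Cacnb1. Of the members 34 were called (25%), where 27.3% of all genes were; 10 were higher (all genes 16.1%) and 24 lower (all genes 11.2%). Of the 24 called above the table median, 6 were higher and 18 lower. Cacnb1, a cytoplasmic β subunit that aids calcium channel assembly, differed by 0.66 ± 0.16 (adjusted p = 0.00602), with 4.64, 4.31 and 4.99 against 4.10, 3.66 and 4.20. Beside this, 13 of 14 pericyte and smooth muscle markers were lower and 1 higher (median -2.20). Kcnj8, Abcc9, Trpc6 and Ano1 are themselves among these 14. All 5 lymphoid stroma markers were higher (median 3.77). Fibroblast markers were higher in 3 of 7 and lower in 1, and endothelial markers were higher in 2 of 12 and lower in 3. The part of these lists in the channel differences was not tested.

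Between the LN PDPN+ populations, cells with BP3 had higher signals for Kcnma1, Kcne4, Kcnmb1, Cacna1c and Kcnj8 and lower signals for Kcnk3, Kcnt2, Cacna1a, Ano1, Kcnb2, Cacna2d1, Cacna1h and Kcnn3. Of the members 23 were called (16.9%, all genes 16.2%), 9 higher (all genes 8.49%) and 14 lower (all genes 7.74%). Of the 17 above the median, 5 were higher and 12 lower. The Cacna1h difference of -0.94 ± 0.27 (adjusted p = 0.0243) was lost without replicate 1 or 2 of PDPN+BP3+ (-0.79 and -0.98, adjusted p = 0.114 and 0.0569) and without replicate 2 of PDPN+BP3- (-0.55, adjusted p = 0.121). Beside these differences, 8 of 12 endothelial and all 7 fibroblast markers were lower with BP3. Lymphoid stroma markers were higher in 4 of 5 (median 1.84), and pericyte and smooth muscle markers, with the 4 channel genes among them, were higher in 6 of 14 and lower in 1. Their part was not tested.

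**Figure D3:**
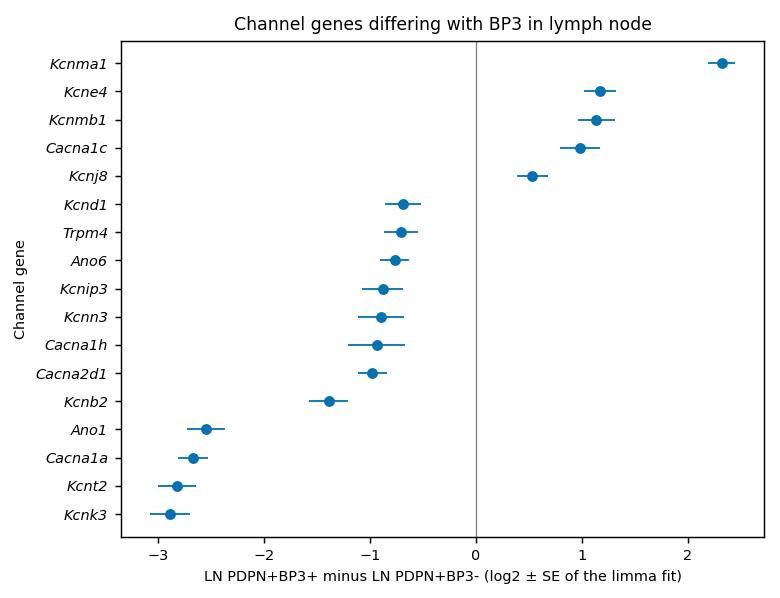
Difference of the channel genes that passed the threshold between LN PDPN+BP3+ and PDPN+BP3- cells and were above the table median in 1 of them (17 genes), as log2 difference (points) with the SE of the limma fit (bars); positive values are higher with BP3. Kcnma1 lies at 2.32 and Kcnk3 at -2.89.

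Between tissues, LN PDPN+BP3- cells had higher signals than thymus PDPN+BP3- cells for Ano1, Kcnk3, Kcnd2, Kcnb2, Kcnma1, Kcnj8, Abcc9 and Kcna6, and lower signals for Cacna1g, Kcnn3 and Kcng4. Of the members 27 were called (19.9%, all genes 17.1%), 16 higher (all genes 11.8%) and 11 lower (all genes 5.29%), and 15 of the 16 but 3 of the 11 were above the table median. Without replicate 1 of thymus PDPN+BP3-, the array with the lowest median, 21 were called, 13 higher and 8 lower. In PDPN- cells, LN had lower signals for Trpc6, Cacna1h, Kcnip4, Kcnt1, Kcnt2, Kcnip3, Kcnq5 and Kcnj8. Here 18 members were called (13.2%, all genes 9.61%), 1 higher (Kcnh2, low in both and not called without replicate 1 of thymus PDPN- or after low genes were filtered out; all genes 4.42%) and 17 lower (all genes 5.19%). The 15 of them above the median were all lower in LN. In both comparisons 8 of 10 T lineage and 6 of 7 epithelial markers were lower in LN, and 6 of 12 endothelial markers were higher in the LN PDPN+BP3- cells. In those cells 9 of 14 pericyte and smooth muscle markers were higher and 2 lower (median 1.06). Kcnj8, Abcc9, Trpc6 and Ano1 are themselves among these 14. In the LN PDPN- cells 5 of 7 fibroblast markers were higher (median 1.36). Of the 14 pericyte and smooth muscle markers, 5 were lower and 1 higher in the LN PDPN- cells (median -0.21). The part of these lists in the channel differences was not tested.

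The comparisons within thymus and within LN of PDPN+BP3- against PDPN- cells share no arrays. The 14 members lower in both made up 53.8% of the 26 lower in thymus and 87.5% of the 16 lower in LN: Abcc9, Cacna1c, Cacna2d1, Kcna5, Kcnab1, Kcne4, Kcnj8, Kcnmb1, Kcnq1, Kcnq5, Kcnt1, Trpc1, Trpc6 and Trpv2. Over all genes the corresponding shares were 36.0% and 67.1%. The 6 higher in both made up 46.2% of 13 and 42.9% of 14 (all genes 62.7% and 48.2%): Cacna1a, Cacng4, Kcnd1, Kcng4, Kcnk6 and Trpv4. Kcnip3 and Kcnk3 were called in opposite directions (1.47% of members, 0.999% of all genes). The tissue comparisons of PDPN+BP3- and of PDPN- cells also share none, and 5 members (3.68%, all genes 1.07%) were called in opposite directions there: Abcc9, Cacna1h, Kcnip3, Kcnj8 and Kcnt2 were higher in LN PDPN+BP3- cells and lower in LN PDPN- cells. For Kcnt2, an LN and a thymus PDPN+BP3- array both measured 4.63, so these populations were not fully apart. For Cacna1h, replicate 2 of LN PDPN+BP3- (4.78) lay well above the other replicates (3.54 and 3.72). Kcnip4, Kcnmb1 and Kcnn4 were lower in LN in both, 27.3% of the 11 and 17.6% of the 17 (all genes 24.0% and 24.5%). None of these differences from all genes was tested.

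Whether the step from PDPN- to PDPN+BP3- cells differed between tissues was tested as an interaction, the LN difference minus the thymus difference. It called 25 members (18.4%, all genes 12.7%), 21 positive (all genes 8.67%) and 4 negative (all genes 4.05%), so 84.0% of those called were positive. Over all genes positive calls also outnumbered negative ones, 1623 against 758. The split of the members moved to 63.0% (17 of 27) with all arrays shifted to 1 median and to 81.0% (17 of 21) after cyclic loess. Ano1 had the largest value, 4.93 ± 0.26 (adjusted p = 3.19e-09), with the thymus difference of -5.02 against -0.10 in LN. Kcnk3 followed at 3.45 ± 0.26 (adjusted p = 2.61e-07), then Cacna1h at 2.63 ± 0.38 (adjusted p = 0.000202), Kcnd2 at 2.32 ± 0.39 (adjusted p = 0.00069) and Kcnj8 at 2.20 ± 0.21 (adjusted p = 2.51e-06). Abcc9, the partner of Kcnj8, gave 1.61 ± 0.17 (adjusted p = 6.78e-06) and Trpc6 1.44 ± 0.20 (adjusted p = 0.000159). Trpc6 was low in the PDPN+BP3- cells of both tissues, so its value mostly repeats the gap of -1.74 between the PDPN- populations. Thus both subunits of the ATP-sensitive channel were lower in the PDPN+BP3- cells of either tissue, and less so in LN. The negative values were Kcnn3 at -2.84 ± 0.31 (adjusted p = 1.08e-05), Cacna1g at -2.33 ± 0.24 (adjusted p = 6.78e-06), Kcng4 at -1.53 ± 0.19 (adjusted p = 4.36e-05) and the low-signal Trpm6 at -0.71 ± 0.16 (adjusted p = 0.00624).

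**Figure D4:**
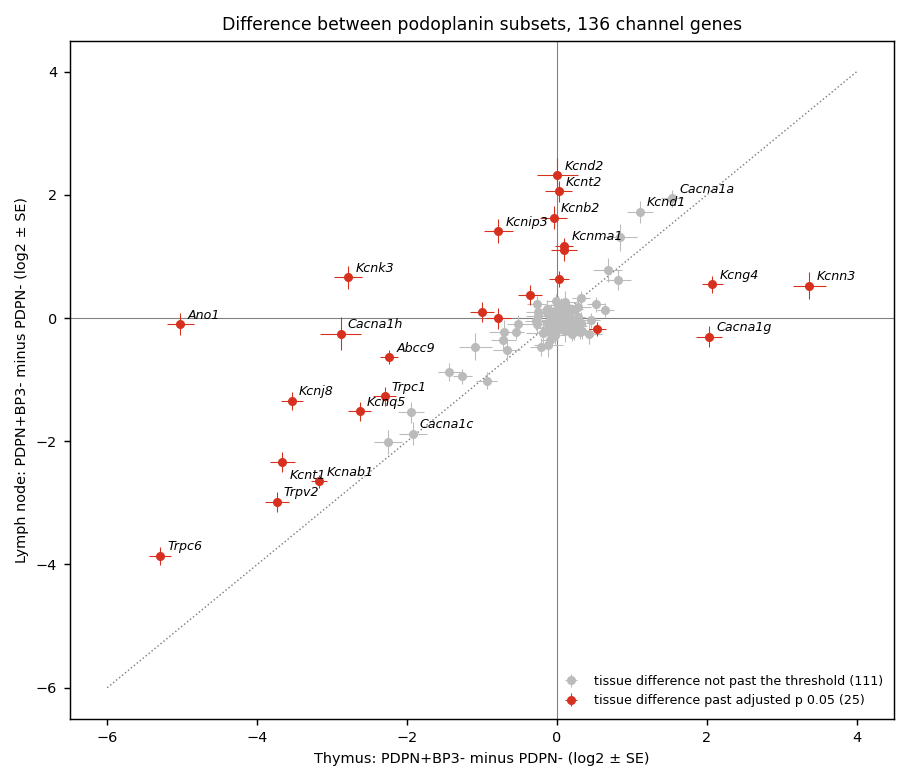
Difference of PDPN+BP3- minus PDPN- cells in thymus (horizontal axis) and in LN (vertical axis) for the 136 channel genes, as log2 difference with the SE of the limma fit (bars); red points are the 25 genes whose tissue difference passed the threshold, and the dotted line marks equal differences. Ano1 lies at -5.02 and -0.10, Trpc6 at -5.30 and -3.86, and Kcnn3 at 3.37 and 0.53.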

How the data were processed

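Gene expression was measured on 15 Affymetrix Mouse Gene 1.1 ST arrays, 3 for each of 5 populations, after amplification of total RNA. The deposited values are RMA signals on a log2 scale, made by the authors with the Affymetrix Expression Console, per the submitters' processing notes; the software version is not given in the sources used here, and base 2 follows only from the span of the values, 1.07 to 12.07. Of 24758 transcript clusters, 20844 carried 1 gene symbol in the array annotation, 1735 several and 2179 none, and the highest of several clusters of a gene was kept, leaving 18718 genes. Of the transcript clusters of channel genes, 7 that named a further gene were left out, among them 1 that names Abcc9 with a non-coding gene inside it. Where members had further clusters, the second Cacna2d1 cluster also had its highest means in PDPN- cells, and the second Ano6 cluster was low.

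The values were used as deposited. A limma fit (limma 3.58.1, R 4.3.3) gave each population 1 mean, with empirical Bayes moderation (10 residual and 5.5 prior degrees of freedom), and Benjamini-Hochberg adjustment over 18718 genes was applied to 6 pairwise comparisons, the interaction and the F test. The fit was tested on simulated data. Most same-numbered arrays did not deviate together: 6 of 30 pairs correlated above 0.1 (range -0.17 to 0.29). The highest values were between LN PDPN- and LN PDPN+BP3-, at 0.29 for replicate 1 and 0.18 for replicate 3, with -0.03 for replicate 2. The main fit treated all arrays as unpaired. Named genes were the 4 markers Kcnj8, Abcc9, Trpc6 and Ano1, up to 8 members per direction and comparison with the largest non-overlapping difference, up to 5 per sign of the interaction, and members above the median that passed no test. Up to 4 genes were named per further list and comparison. The members and lists were chosen with earlier results of these data known. Alternatives were other scalings, priors and gene filters, fits of the compared populations alone, a replicate block and leaving out each array. Nothing was tested about binding at promoters.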

Additional observations from a re-analysis of the deposited data

Results flagged for a closer look

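The step from PDPN- to PDPN+BP3- cells differed between the tissues for 9 channel genes named by the rule, by the interaction term of the limma fit (LN difference minus thymus difference, log2). Positive values were found for Ano1 (4.93), Kcnk3 (3.45), Cacna1h (2.63), Kcnd2 (2.32) and Kcnj8 (2.20). Ano1 was lower in the thymus PDPN+BP3- cells on 3 of 3 arrays, while the LN arrays overlapped. For Kcnd2 the thymus populations overlapped and all 3 LN PDPN+BP3- arrays were above the PDPN- arrays. Kcnj8, the pore gene of the ATP-sensitive channel, was lower in PDPN+BP3- cells of either tissue on all arrays. Negative values were found for Kcnn3 (-2.84), Cacna1g (-2.33), Kcng4 (-1.53) and Trpm6 (-0.71). Trpm6, a magnesium channel gene, had low signals on every array (1.95 to 2.72), so its value is a difference between low signals.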

How the results depend on the processing

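Counts of channel genes called in either direction stayed within 1.5 times of the reported count under the alternatives run. Leaving out 1 array at a time gave 38 to 42 in place of 39 for thymus PDPN+BP3- against PDPN-, 26 to 31 in place of 30 and 29 to 33 in place of 34 for the LN PDPN+BP3- and PDPN+BP3+ cells against LN PDPN-, 18 to 22 in place of 23 between those, 21 to 28 in place of 27 between the tissues in PDPN+BP3- cells, 13 to 22 in place of 18 in PDPN- cells, and 20 to 26 in place of 25 for the interaction. With the 75th percentile of the table, 6.10, in place of its median, 18 members in place of 40 were above it. With arrays shifted to 1 median, the median difference of all genes between the tissues in PDPN+BP3- cells moved from 0.04 to -0.06, and 10 interactions in place of 4 were negative. Of the counts in 1 direction, with low genes filtered out 7 in place of 13 members were higher in thymus PDPN+BP3- cells and 5 in place of 11 were lower in LN PDPN+BP3- than in thymus PDPN+BP3- cells, since fewer members were tested. Negative interactions numbered 7 with a trended and robust prior and 7 without replicate 2 of thymus PDPN+BP3-. Kcnh2, the only member higher in LN PDPN- cells, was not called after the filter, or without replicate 1 of thymus PDPN-.

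Among 95 pairs of a named gene and a comparison, 1294 of 1306 alternative values kept direction and call, 7 lost the call, 3 gained it and 2 reversed. Most of these pairs were named for large differences past the threshold, 90 of the 95 being past it. This steadiness therefore follows largely from the choice and does not extend to the other members. The reversals were of the uncalled Ano1 difference in LN, which ranged from -0.19 to 0.067 when 1 array was left out, with 0.067 without replicate 1 of LN PDPN- and 0.032 without replicate 3 of LN PDPN+BP3-; the cause was not tested. With the replicate number as a block, which the arrays do not bear out as a pairing (21 of 60 correlated best with their own number), 39, 30, 35, 24, 28 and 18 members were called in the 6 comparisons and 23 interactions. The number of arrays limits precision, and no measure of background separates low signals from none.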

Other observations

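Other ion channel genes, from lists of chloride, cation and sodium channels, also differed between the populations. Clcn5, an endosomal chloride and proton exchanger, averaged 6.30 ± 0.25 (SD, n = 3) in thymus PDPN+BP3- cells against 3.40 ± 0.19 in thymus PDPN- cells (difference 2.90 ± 0.16 SE, limma adjusted p = 6.63e-10), and it was higher in LN PDPN+BP3- than in LN PDPN- cells by 2.01 ± 0.16 (adjusted p = 8.64e-08). Mcoln2, a cation channel of endosomes and lysosomes, averaged 5.61 ± 0.45 in thymus PDPN+BP3- cells against 2.62 ± 0.07 in thymus PDPN- cells and 2.20 ± 0.11 in LN PDPN+BP3- cells. Scn7a, a sodium channel gene whose product senses sodium, averaged 7.65 ± 0.20 in thymus and 7.89 ± 0.21 in LN PDPN+BP3- cells, where the matching PDPN- populations averaged 5.49 ± 0.27 and 5.38 ± 0.12. P2rx1, an ATP-gated channel of smooth muscle, averaged 4.16 ± 0.11 in thymus and 4.62 ± 0.32 in LN PDPN- cells and was low in all PDPN+ populations with which it was compared.

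Piezo2, a channel opened by mechanical force, differed in opposite directions in the tissues. It was higher in thymus PDPN+BP3- cells (7.23 ± 0.27) than in thymus PDPN- cells (5.32 ± 0.13), by 1.91 ± 0.16 (adjusted p = 6.04e-08). In LN it was lower in PDPN+BP3- cells (6.56 ± 0.30) than in PDPN- cells (8.45 ± 0.10), by -1.89 ± 0.16 (adjusted p = 9.21e-08). Lrrc8b, a subunit of volume-regulated anion channels, was higher in LN PDPN+BP3+ (7.23 ± 0.16) than in LN PDPN+BP3- cells (5.26 ± 0.17), by 1.97 ± 0.16 (adjusted p = 1.18e-07). Over the lists, 6 of 34 other chloride and cation channel genes were higher and 5 lower in thymus PDPN+BP3- cells, and 6 higher and 6 lower in LN PDPN+BP3- cells, each against PDPN- cells. Of all genes, 10.3% were higher and 18.2% lower in the first comparison, and 13.4% and 9.79% in the second. Of 10 sodium channel genes, 2 were higher and 2 lower in thymus, and 1 higher and 1 lower in LN, in the same comparisons. With lists this short, the counts show nothing particular to them.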
